A study of Homo sapiens with 4 samples.

Results

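The aldehyde dehydrogenases described here are 9 genes, ALDH1A1, ALDH1A2, ALDH1A3, ALDH1B1, ALDH2, ALDH3A1, ALDH3A2, ALDH3B1 and ALDH7A1, of 20501 genes with a symbol on the array. They were measured by the probes whose systematic name is a RefSeq transcript of one of these genes, which are 16 of 50590 probes. The labels of all 4 conditions name MCF-10A, an established line of normal human mammary epithelial cells, kept in medium with epidermal growth factor, insulin, hydrocortisone and cholera toxin. After 48 h in culture, the cells received 10 µM of a hydrocarbon-stapled peptide, labelled either stapled-peptide or non-specific stapled-peptide, and RNA was collected 24 h or 48 h later. Each peptide and time has 1 single-colour Agilent array, so conditions could not be tested against each other, and precision is limited by the number of arrays. The labels give control as the treatment on both non-specific arrays, and they do not say whether either peptide is stERAP-2 or stERAP-5. Every difference between peptides is the log2 signal of the non-specific array less that of the stapled-peptide array at the same time. Under the reading that non-specific means stERAP-5, signals above those of the stapled-peptide array belong to cells given stERAP-5.

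Aldehyde dehydrogenases oxidize reactive aldehydes to carboxylic acids with NAD or NADP as the acceptor of electrons. The ALDH1A enzymes turn retinaldehyde into retinoic acid, the ligand of the retinoic acid receptors, and high activity of these enzymes is widely used to sort stem-like cells from mammary epithelium. The mitochondrial enzymes ALDH2 and ALDH1B1 remove acetaldehyde, the ALDH3 enzymes remove fatty and aromatic aldehydes formed from lipids, and ALDH7A1 acts in the breakdown of lysine.

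The array of cells given non-specific stapled-peptide for 48 h, called the 48 h non-specific array below, stood apart from the other 3 arrays. Pearson's correlation of log2 signals across probes, which are not independent replicates, was 0.976 to 0.978 among the other 3 arrays and 0.799 to 0.807 between any of them and this array. All 10 markers of basal mammary epithelium, among them the keratin gene KRT5, were more than 2-fold lower on it than on its 48 h stapled-peptide counterpart. All 10 were well above background on the other 3 arrays and 9 on it, and the log2 of their summed signal was 16.85 to 16.86 on the other 3 arrays and 8.95 on it. Of 8 markers of embryonic kidney lines or neural cells, 5 were more than 2-fold higher. The kidney marker PAX2 and L1CAM went the other way, with bounds of −0.59 and −0.58, both dim on it. The log2 of the summed signal of the 8 was 9.62 to 9.72 on the other 3 arrays and 15.46 on it. Of 8 luminal markers, 1 was higher and 2 were lower past 2-fold, with a median of −0.31 over the 7 with a difference, and the log2 of their summed signal was 14.90 to 14.98 against 12.69. Of 5 mesenchymal markers, 2 were lower past 2-fold, and the summed signal was at 16.35 to 16.48 against 14.24. Of all genes with a difference at 48 h, 41.0% passed 2-fold, 21.2% higher and 19.8% lower. Beside this share, the luminal and mesenchymal counts are not read as results about those lists. PGR, COL1A2 and PHOX2A were dim on all 4 arrays. The label of the 48 h non-specific array thus goes against its basal markers, and whether its RNA came from the same cells as that of the other 3 was not tested. Every difference at 48 h below rests on this array, and the part of the basal and of the embryonic kidney or neural markers in it was not tested. The share of spots well above background was 62.5 to 65.7% over the 4 arrays, and the median coefficient of variation of repeated spots, which covers error within an array only, was 6.01 to 6.56%. In RNA from a whole culture, fewer cells of a type and less RNA per cell cannot be told apart.

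At 48 h, 6 of the 9 genes differed past 2-fold between the peptide treatments. ALDH2 and ALDH1A2 were higher on the 48 h non-specific array, whereas ALDH3A1, ALDH3B1, ALDH1A3 and ALDH3A2 were lower. Over all 17112 genes with a difference at 48 h, 41.0% passed 2-fold, 21.2% higher and 19.8% lower. At 10-fold, 1 member was higher (ALDH2) and 2 were lower (ALDH3A1 and ALDH3B1), against 6.56% of all genes, of which 2.64% were higher and 3.92% lower. No member passed 100-fold. The median difference of the members was −0.61 and their median size was 2.02 on the log2 scale, compared with 0.03 and 0.81 for all genes. The members therefore lay on both sides, and a difference past 2-fold was itself common among all genes at this time. The members were chosen with earlier results of these data known, so their larger median size cannot be read as a finding about the family.

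**Figure D1:**
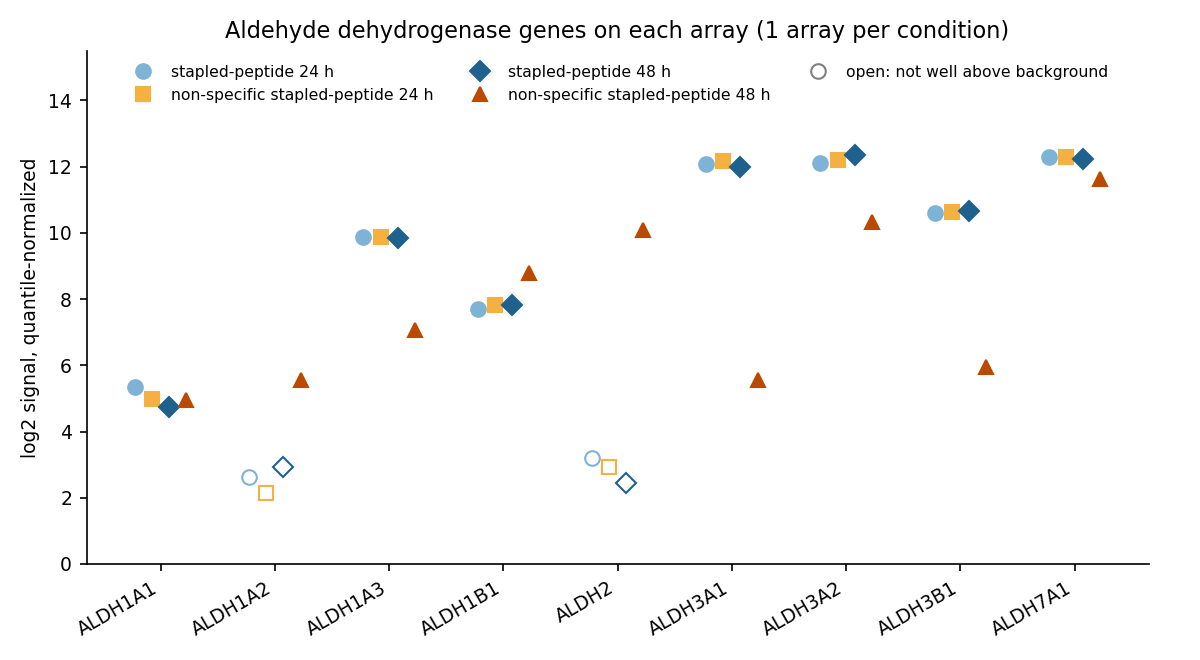
Quantile-normalized log2 signal of the 9 aldehyde dehydrogenase genes on each of the 4 arrays, taken from the gene's brightest probe on average, with open symbols for a signal not well above background. For 7 genes the other 3 arrays lie within 0.60 of each other. The 48 h non-specific array lies apart for ALDH2, ALDH3A1, ALDH3B1, ALDH1A3, ALDH1A2 and ALDH3A2, and less far for ALDH1B1 and ALDH7A1. Heights are not comparable between genes.

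Among the retinaldehyde dehydrogenases, ALDH1A3 was lower, ALDH1A2 was higher and ALDH1A1 differed little on the 48 h non-specific array. Their promoter sequences are shown because the members of this subgroup catalyse the same step and differed in direction. Each sequence is the 250 bases before the annotated start, 5′ to 3′ on the strand of the gene, from RefSeq with GRCh38.p14, with capitals for CCAAT and the GC box GGGCGG on either strand. ALDH1A1 at chr9:72953054-72953303 (minus strand), ALDH1A2 at chr15:58065712-58065961 (minus strand) and ALDH1A3 at chr15:100879581-100879830 (plus strand) read as follows. RefSeq has another ALDH1A2 entry, at chr15:58014024-58014273, which is not shown, and the entry printed was chosen as the one richer in CpG.
ALDH1A1: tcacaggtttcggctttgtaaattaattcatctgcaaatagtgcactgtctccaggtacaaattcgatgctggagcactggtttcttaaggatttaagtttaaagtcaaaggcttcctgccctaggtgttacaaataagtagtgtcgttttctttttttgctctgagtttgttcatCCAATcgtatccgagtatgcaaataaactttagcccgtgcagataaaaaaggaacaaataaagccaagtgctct
ALDH1A2: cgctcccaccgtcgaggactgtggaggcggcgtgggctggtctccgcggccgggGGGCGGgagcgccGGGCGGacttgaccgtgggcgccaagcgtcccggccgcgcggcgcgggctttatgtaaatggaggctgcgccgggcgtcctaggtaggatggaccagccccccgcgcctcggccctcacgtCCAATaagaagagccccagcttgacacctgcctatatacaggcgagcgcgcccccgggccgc
ALDH1A3: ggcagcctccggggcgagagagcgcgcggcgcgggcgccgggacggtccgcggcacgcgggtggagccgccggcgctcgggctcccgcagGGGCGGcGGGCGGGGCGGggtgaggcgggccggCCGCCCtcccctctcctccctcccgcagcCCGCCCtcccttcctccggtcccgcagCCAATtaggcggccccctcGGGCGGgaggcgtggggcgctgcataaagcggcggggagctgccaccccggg

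The ALDH1A1 promoter had 38.4% G and C and 6 CpG dinucleotides, the printed ALDH1A2 promoter 72.8% and 33, and the ALDH1A3 promoter 82.4% and 38. The other ALDH1A2 entry had 41.6% and 1 CpG, with no CCAAT and no GC box. The medians of all 35116 promoters in the table were 58.0% and 11. CCAAT was present once in each of the 3 printed promoters, and in 32% of all promoters. The GC box was absent from the ALDH1A1 window, present 2 times in the printed one of ALDH1A2 and 6 times in that of ALDH1A3, where some copies overlap, and it was found in 42.6% of all promoters. The core GCGTG was found in 32.2% of all promoters and in at least 1 window of 3 of the 7 members with an entry. These members have 10 entries in all, so this count of genes is not on the same unit as the share of promoters. AGGTCA was found in 12.1% of all promoters and in none of the members' windows. These letters are a description of the windows, and no array measured binding to them.

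ALDH1A3, a known source of aldehyde dehydrogenase activity in breast cancer cells, had a log2 signal of 9.86 with stapled-peptide at 24 h, 9.87 with the non-specific peptide at 24 h, and 9.85 and 7.08 in the same order at 48 h. The first 3 values lay within 0.02 of each other, and the last was low. The difference at 48 h was −2.77, a signal 6.84-fold lower, and 9.39% of all genes differed by at least as much in either direction.

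ALDH1A2, the retinaldehyde dehydrogenase with a leading role in the embryo, had log2 signals of 2.63 and 2.15 at 24 h and of 2.92 with stapled-peptide at 48 h, none of them well above background. It was well above background on the 48 h non-specific array alone, at 5.54. The difference is therefore a bound of at least 1.66, or at least 3.15-fold higher, taken against the lowest well-above-background signal of the dim array. With the normexp background correction the bound was 0.61, below 2-fold.

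ALDH1A1, the form most often named as a stem cell marker, had log2 signals of 5.35 and 4.97 at 24 h and of 4.75 and 4.95 at 48 h in the same order of peptides. The spread of 0.60 over the 3 arrays other than the non-specific one at 48 h was larger than the difference of 0.20 between the peptides at 48 h. The other ALDH1A1 probe lay at 3.10 and 6.64 at 24 h and at 4.30 and 4.93 at 48 h, with both stapled-peptide signals dim. The high value of this probe was thus at 24 h, where its difference was a bound of at least 2.70 against −0.39 for the first probe. The probes disagree in direction at 24 h, so the direction for ALDH1A1 at that time depends on the probe.

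The acetaldehyde-removing enzymes ALDH2 and ALDH1B1 were both higher on the 48 h non-specific array. ALDH2, the main enzyme of acetaldehyde removal after ethanol, had log2 signals of 3.21 and 2.92 at 24 h and of 2.45 with stapled-peptide at 48 h, all dim. On the 48 h non-specific array it was at 10.09, which before normalization was a signal of 1142 against 4.63 to 10.2 on the other 3 arrays. The gene was thus measured above background on a single array. The difference was at least 6.20, or at least 73.7-fold higher, and 1.22% of all genes differed by at least as much in either direction. With the normexp background correction the bound was 3.84, so the size of the fold depends on this setting.

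ALDH1B1, the mitochondrial enzyme closest to ALDH2 in sequence, had log2 signals of 7.70 and 7.81 at 24 h and of 7.81 and 8.77 at 48 h. The last value was the high one, and the other 3 lay within 0.11. The difference of 0.96, or 1.95-fold higher, lay just short of 2-fold and became 1.26 without normalization between arrays, a setting that also moved the median of all genes by 0.23. Of all genes, 42.6% differed by at least as much.

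All 3 ALDH3 genes among the members were lower on the 48 h non-specific array, with every one of their 7 probes past 2-fold. ALDH3B2, a further gene of this subfamily, had no probe assigned to it. ALDH3A1, a cytosolic enzyme abundant in the cornea that removes products of lipid peroxidation and is induced through the aryl hydrocarbon receptor, had log2 signals of 12.06 and 12.18 at 24 h and of 12.00 and 5.57 at 48 h. Its other probe, for another transcript, lay at 11.34 and 11.41 and then at 11.25 and 5.17. On both probes the first 3 arrays were high and close together and the last was low. The differences at 48 h were −6.43, a signal 86.2-fold lower, and −6.09, and 1.03% of all genes differed by at least as much as the first. With the normexp background correction the first was −5.20.

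ALDH3B1, a membrane-bound enzyme for long-chain aldehydes, had log2 signals of 10.59 and 10.63 at 24 h and of 10.65 and 5.93 at 48 h. The difference was −4.72, or 26.3-fold lower, and it was −3.69 with the normexp background correction. The other probes, which share another transcript, gave −4.04 and −2.76, so the 3 probes had 1 direction and differed in size. Of all genes, 2.88% differed by at least as much as the first probe.

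ALDH3A2, the fatty aldehyde dehydrogenase of the endoplasmic reticulum that is mutated in Sjögren-Larsson syndrome, had log2 signals of 12.10 and 12.19 at 24 h and of 12.34 and 10.32 at 48 h. The difference was −2.02, or 4.05-fold lower. The probe for its other transcript lay at 12.22, 12.20 and 12.24 and then at 9.53, a difference of −2.71. Both probes stayed well above background on the array where they were low, and 16.5% of all genes differed by at least as much as the first. ALDH3A1 and ALDH3A2 lie on chromosome 17 with 1 protein-coding gene between them, SLC47A2, a transporter of organic cations. It had log2 signals of 9.05, 9.16 and 9.03 on the other 3 arrays and of 4.41 on the non-specific one at 48 h, a difference of −4.62.

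ALDH7A1, or antiquitin, which acts in lysine breakdown and in the making of betaine and is mutated in pyridoxine-dependent epilepsy, had log2 signals of 12.28 and 12.28 at 24 h and of 12.24 and 11.63 at 48 h. The last value was the lowest, with a difference of −0.61, or 1.52-fold lower. Its 3 probes gave −0.61, −0.51 and −0.64 at 48 h, and 61.0% of all genes differed by at least as much as the first. The third probe differed by 0.34 at 24 h, and this was the largest size among the 3 probes at 24 h.

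**Figure D2:**
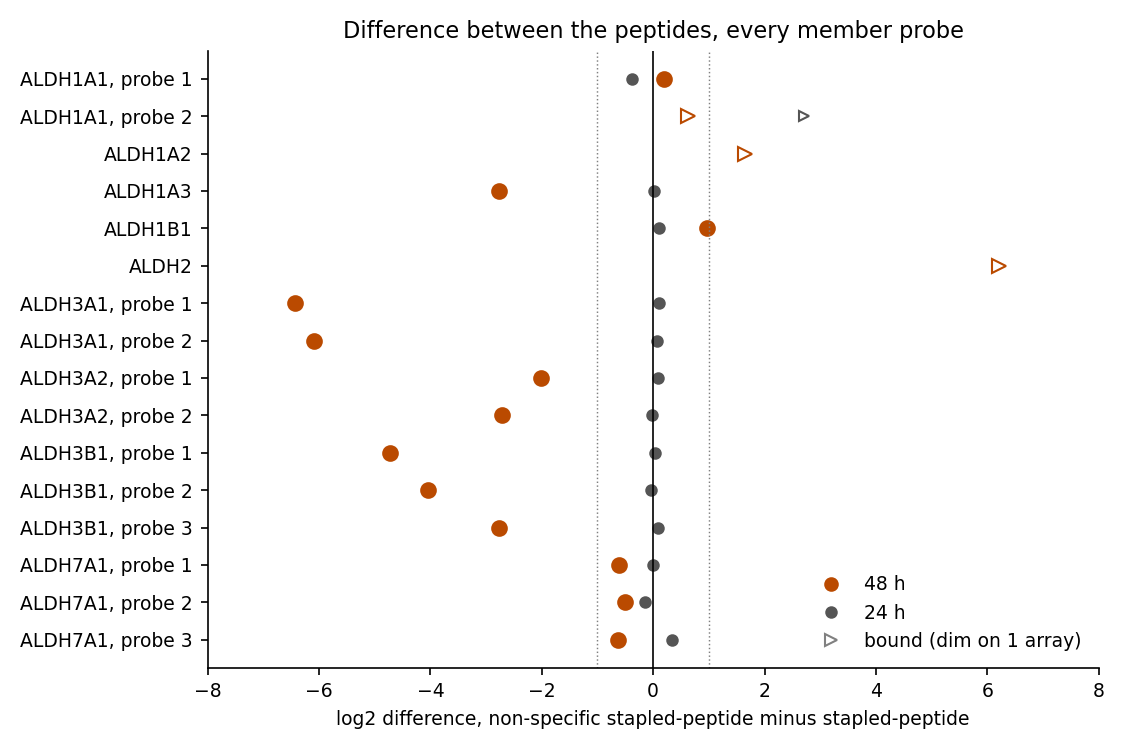
Log2 difference between the peptides, non-specific stapled-peptide less stapled-peptide, for each of the 16 member probes at 24 h and 48 h, with open triangles for bounds and dotted lines at 2-fold. At 48 h, 2 probes lie above and 8 below the dotted lines, whereas at 24 h only the second ALDH1A1 probe lies past them.

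In the 5 genes with several probes, all probes of a gene differed in the same direction at 48 h, and this held for 1 of the 5 at 24 h. At 24 h, none of the 7 members with a difference passed 2-fold, against 1.87% of all genes. Their differences ran from −0.39 for ALDH1A1 to 0.11 for ALDH1B1 and ALDH3A1, with a median of 0.04 and a median size of 0.09, compared with 0.01 and 0.11 for all genes. ALDH1A2 and ALDH2 were dim on both arrays at 24 h and have no difference there. The SD of the differences over all genes was 0.34 at 24 h and 1.76 at 48 h.

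**Figure D3:**
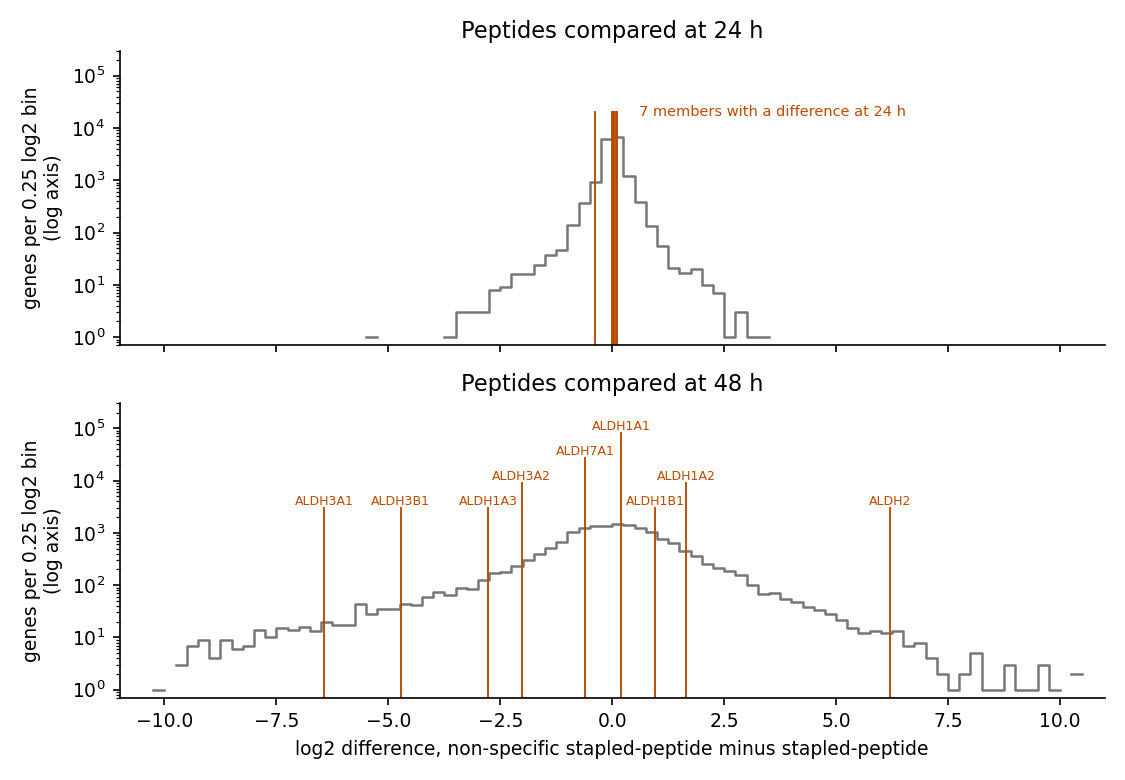
Number of genes (log axis) by their log2 difference between the peptides in bins of 0.25, at 24 h and 48 h, with vertical lines at the members, whose height carries no value. The 7 members with a difference at 24 h lie between −0.39 and 0.11, and at 48 h the 9 members run from −6.43 for ALDH3A1 to a bound of 6.20 for ALDH2.

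Over time with non-specific stapled-peptide, 48 h less 24 h, 6 of the 9 genes passed 2-fold, 2 higher and 4 lower, against 41.3% of all genes. This comparison uses the same non-specific array at 48 h as the comparison of the peptides at 48 h, and is therefore no second observation of it. The values side by side were −6.61 over time and −6.43 between peptides for ALDH3A1, −4.70 and −4.72 for ALDH3B1, and bounds of at least 6.31 and at least 6.20 for ALDH2. ALDH1A3 gave −2.79 and −2.77, ALDH3A2 −1.87 and −2.02, ALDH1B1 0.96 and 0.96, and ALDH7A1 −0.65 and −0.61. ALDH1A2 had bounds of at least 1.76 and at least 1.66, and ALDH1A1 had −0.02 and 0.20, the only member with opposite signs. Over time with stapled-peptide, which leaves that array out, no member passed 2-fold, against 2.06% of all genes. The 7 members with a difference there ran from −0.60 for ALDH1A1 to 0.24 for ALDH3A2.

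Without the 48 h non-specific array, the range over the other 3 arrays was small for most members. At the gene's brightest probe, the range of the log2 signal was at most 0.60 for the 7 members well above background on all of them, with a median of 0.11, against 0.15 for all 14842 such genes, of which 1.54% spanned more than 1. The range of 0.60 was that of ALDH1A1, and its other probe, dim on 2 of the 3 arrays, spanned 3.55. All 7 were well above background on all 4 arrays, as were 14042 of all 20501 genes (68.5%). ALDH1A2 and ALDH2 were well above background on the non-specific array at 48 h only, as were 1108 of all genes (5.40%).

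Among 9 further ALDH genes on the array, 2 were higher and 1 was lower past 2-fold at 48 h, with a median difference of 0.46 against 0.03 for all genes. Of all genes, 41.0% passed 2-fold at 48 h, which stands beside the counts of this and the following lists. ALDH1L1, the cytosolic enzyme that oxidizes formyl-tetrahydrofolate, had log2 signals of 6.50 and 6.03 at 24 h and of 6.29 and 4.81 at 48 h, a difference of −1.48. Its mitochondrial counterpart ALDH1L2 lay at 6.54 and 6.35 and then at 6.78 and 8.15, a difference of 1.36. ALDH5A1, which clears succinic semialdehyde, differed by 1.43, ALDH18A1, which makes the precursor of proline, by 0.78, and ALDH8A1 by 0.52. For ALDH8A1 the range over the other 3 arrays was 0.81, larger than this difference. At 24 h it differed by −0.81, the opposite sign. None of the 9 passed 2-fold at 24 h.

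Of the 16 alcohol and retinol dehydrogenases on the array, which interconvert alcohols and aldehydes, 14 had a difference at 48 h, 3 higher and 3 lower past 2-fold, with a median of −0.11. The class I alcohol dehydrogenases were the lower ones. ADH1C had log2 signals of 12.38 and 12.28 at 24 h and of 12.45 and 4.52 at 48 h, a signal 243-fold lower, and ADH1A and ADH1B had bounds of −6.85 and −4.67. These 3 genes are close copies, and cross-hybridization between their probes was not tested. RDH5 differed by 2.01 and RDH10 by 1.79, and DHRS3, which turns retinaldehyde back into retinol, was 4.01-fold higher. No gene of this list passed 2-fold at 24 h.

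Of 18 retinoid carriers, receptors and breakdown enzymes, 14 had a difference at 48 h, with 4 higher and 3 lower past 2-fold and a median of −0.46. CYP26A1, which breaks down retinoic acid and is a well-known retinoic acid target, had a bound of at least 3.18, and the carrier CRABP2 differed by 3.13. The retinoid receptor RXRA and the transglutaminase TGM2, a further known target, each differed by −2.48. At 24 h, 1 gene of the list passed 2-fold, RARB with a bound of −1.84. The carriers past 2-fold, CRABP2 and FABP5, were on the higher side. The receptors past 2-fold lay on both sides, RARB with a bound of at least 1.51 and RARG at −2.21. RARB lay at 5.62 on the 24 h stapled-peptide array, above its 5.48 on the 48 h non-specific array. Its difference thus had opposite signs at 24 h and 48 h.

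Of 7 aryl hydrocarbon receptor genes, 5 were lower and 2 higher past 2-fold at 48 h, with a median of −1.77. NQO1, a quinone reductase, had log2 signals of 9.01 and 9.04 at 24 h and of 9.03 and 2.72 at 48 h, the last one dim, for a bound of −5.46. CYP1B1 lay at 13.19 and 13.10 and then at 13.13 and 9.28, a difference of −3.84. The receptor AHR itself differed by −1.87 and TIPARP, its feedback inhibitor, by −1.77. The higher genes were CYP1A1 and CYP1A2. CYP1A1 lay at 5.45 and 5.80 at 24 h and at 5.33 and 6.43 at 48 h, a signal 2.14-fold higher. It was well above background on all 4 arrays, whereas CYP1A2 had a bound of at least 1.93. At 24 h CYP1A2 alone passed 2-fold, with a bound of −2.52, so it had opposite signs at the 2 times.

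Of 7 genes of lysine and choline breakdown around ALDH7A1, 6 had a difference at 48 h, 2 of them past 2-fold and both higher, with a median of 0.70. CHDH, the choline dehydrogenase whose product ALDH7A1 can oxidize to betaine, was at 4.11, which is dim, and 4.21 at 24 h, again dim with stapled-peptide at 48 h and at 9.01 on the 48 h non-specific array, at least 32.3-fold higher. DHTKD1 differed by 1.39, AASS, the first enzyme of lysine breakdown in mitochondria, by −0.85, AADAT by 0.84 and GCDH by 0.57. No gene of this list passed 2-fold at 24 h.

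**Figure D4:**
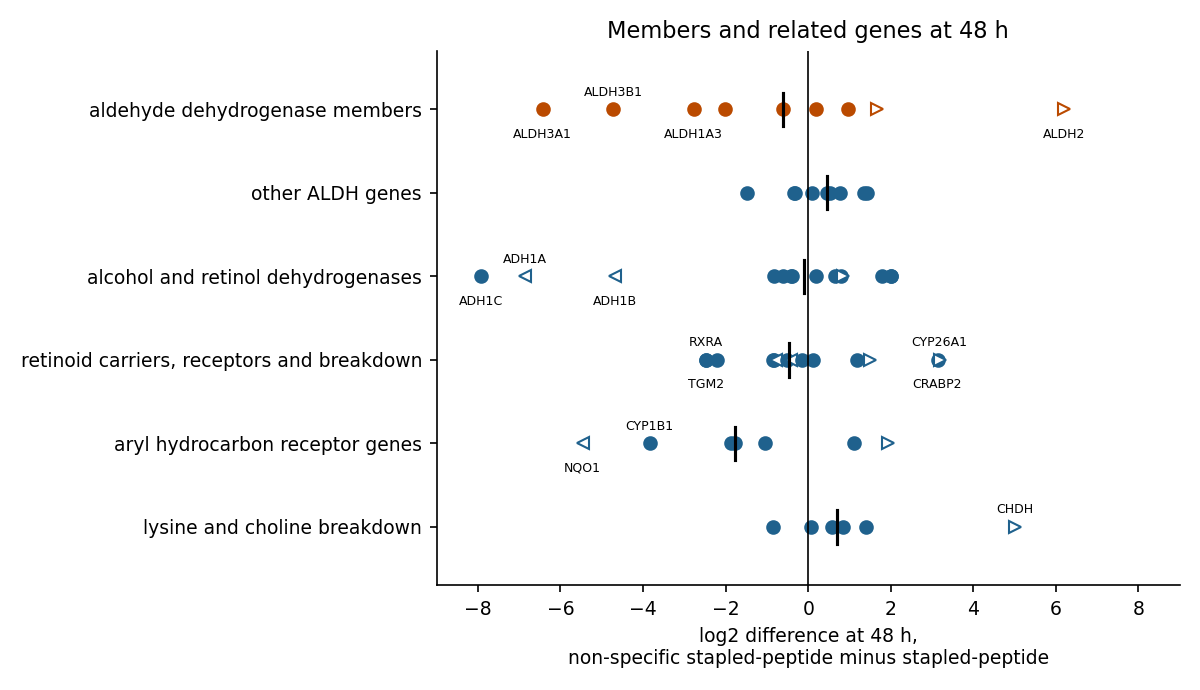
Log2 difference between the peptides at 48 h, non-specific stapled-peptide less stapled-peptide, for the members and 5 lists of related genes, with open triangles for bounds and a black bar at each median. The medians run from −1.77 for aryl hydrocarbon receptor genes to 0.70 for lysine and choline breakdown, and the members' median is −0.61.

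The genes whose profile over the 4 arrays was most like that of ALDH3A1 were CXCL2, NT5E, LY6K, S100A4 and TGFBR2. Likeness was measured as the root mean square distance between log2 profiles centred on their own mean, over 14041 genes, and was 0.035 to 0.060 for these 5. Their differences at 48 h were −6.39 to −6.59, and the distance rests mainly on the 1 array where all of them were low.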

How the data were processed

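Per the file headers, the deposited spot intensities were background-subtracted linear signals that the authors extracted with Agilent Feature Extraction 10.7.1.1, whereas the labels name version 9.5. The authors' combined table holds the mean of these intensities over a probe's spots (98.6% or more of probes within 0.001, relative). The methods state quantile normalization, used here over all 4 arrays on log2 intensities. All arrays lay on 1 slide. Control and outlier-marked spots were dropped, as were 9 of 50599 probes without a remaining spot. RefSeq accessions gave a symbol to 55.7% of probes. Where a gene has several probes, the brightest on average stands for it. A probe dim on 1 array entered as a bound, and a probe dim on both gave no difference. For a bound, the dim signal was raised to the lowest one marked well above background there, unless it already lay above that. Some dim signals did, so this lowest signal is a rule for setting bounds and no limit of detection.

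Members and lists were chosen with earlier results of these data known. All member probes were described, and at least the 5 genes of each list of related genes with the largest difference at 48 h were named. SLC47A2 was named for its position. From the retinoid list, 1 gene is not reported here and was left out of the list's counts. The promoters of ALDH2 and ALDH3A1 were not used here. Python 3.11.15, numpy 2.4.6, pandas 2.3.3, matplotlib 3.10.9 and limma 3.58.1 in R 4.3.3 were used. The code was checked on copies of the 48 h stapled-peptide array with small added noise and the same 50590 probes. There, 200 of 200 probes changed 8-fold were recovered, with 0 others. Such settings leave little room for another outcome, so the check does not measure error in the real arrays.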

Additional observations from a re-analysis of the deposited data

How the results depend on the processing

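No paired analysis was possible because each peptide and time has 1 array, and for the same reason no array of a condition could be left out. At 48 h the 6 members past 2-fold became 7 without normalization, 5 with the normexp background correction and 4 when probes dim on either array were dropped. At 10-fold 3 members passed and at 100-fold 0, and over time with non-specific stapled-peptide the numbers were also 3 and 0. The median at 48 h became −2.02 when probes dim on either array were dropped, which leaves ALDH1A2 and ALDH2 out. At 24 h, 1 member passed 2-fold with normexp and 1 when the probes of a gene were averaged, where ALDH1A1 differed by 1.05 and 1.16, from −0.39. Under normexp its other probe gave the gene's value. Without normalization, 62.6% of all genes past 2-fold at 48 h were higher, compared with 51.7%. No member's difference at 48 h changed sign. Of 70 values, 60 moved by less than 0.34, the SD of all differences at 24 h. Several settings could hardly move them. Dropping the bound, or the probes dim on either array, leaves values without a bound as they were. The authors' combined table holds the same spot means, and no member spot was outlier-marked. Normexp was used with an offset of 50 added to every signal, which makes a fold smaller where a signal is low. It moved 5 of 9 members, among them ALDH2 to 3.84, ALDH3A1 to −5.20 and ALDH3B1 to −3.69. The part of the offset in this was not tested. No spot was saturated, so leaving out saturated probes tested nothing. Signals not well above background leave bounds in place of values for ALDH1A2 and ALDH2.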
